A study of Arabidopsis thaliana with 12 samples.

Results

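SBPASE (AT3G55800) and PRK (AT1G32060) are nuclear genes of Arabidopsis thaliana that code for enzymes of the chloroplast Calvin cycle. They were chosen by name, as the genes for the regeneration of ribulose bisphosphate that have a probe annotated to exactly 1 gene. Each has 1 such probe, so 2 of the 691 genes with a probe of their own are described here, on an array of 3439 probes. The samples are total RNA of the ecotype Columbia 0, labelled wild type, the common laboratory form of this small flowering plant. In 6 samples (control) the plants were grown at normal iron, and in the other 6 (high iron) at high iron concentrations, which the labels describe as oxidative stress. The sample titles mark the control samples as H2O and the high iron samples as pFe. Which tissue was taken, at what age, and how much iron was given for how long is not stated in the labels, so no tissue could be checked against markers. Nothing in the labels says that the samples of a group came from separate plants, and the spread behind each p-value is that between these samples and may be technical.

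The Calvin cycle fixes carbon dioxide onto ribulose bisphosphate in the chloroplast stroma, reduces the product to triose phosphates, and then rebuilds the acceptor from most of them. SBPASE is the sedoheptulose-bisphosphatase of this regeneration branch, and removes a phosphate from sedoheptulose bisphosphate in a step that is in effect irreversible. PRK is phosphoribulokinase, which spends ATP to turn ribulose phosphate into ribulose bisphosphate and so makes the acceptor itself. Both enzymes are switched on in the light through thioredoxins, which reduce disulphide bridges in the proteins with electrons from ferredoxin or NADPH. The arrays measure the transcripts and not these activities.

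The deposited value is 1 intensity per probe and sample, on a linear scale from 0 to 100 whose unit is not stated. Column medians lay between 0.555 and 0.618 in control samples and between 0.352 and 0.446 in high iron samples, so the scaling of the arrays bears on every change. The values were therefore quantile normalized and taken to log2, and changes are given on that scale unless another is named. Within each group the samples with numbers 1 and 2, 3 and 4, and 5 and 6 deviated together, with correlations between 0.56 and 0.82 over all probes inside such a set and between -0.70 and -0.25 across sets. The deviations are from the group mean, which by itself makes correlations across sets negative when samples inside a set agree. If samples of a set are repeat measurements, there are 3 replicates per group and not 6, so results are also given over the 6 averages of the sets.

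SBPASE was higher at high iron than in control by 0.48 on the log2 scale (SE 0.09, n = 6 per group), or 1.39-fold. PRK, its partner in the same branch, had a value of 0.18 (SE 0.21) and did not pass the test. After quantile normalization SBPASE was higher at high iron in 6 of the 6 pairs of samples with the same number, and with deposited values in 4 of 6. PRK was higher in 2 of 6 on either scale, both in the set of samples 3 and 4. Pairs of the same set may not be separate replicates. Of all probes, 57.7% kept 1 sign over the 3 sets after normalization. The means of the PRK sets spanned 0.66 in control and 0.90 in high iron samples on the log2 scale, more than the difference of 0.18 between the groups.

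In control samples the deposited SBPASE intensity was 0.611 at the lowest, 0.650 at the median and 0.696 at the highest. In high iron samples it was 0.640, 0.691 and 0.785. On this unscaled basis the groups overlapped, since high iron samples 1, 5 and 6 lay below control samples 5 and 6.

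Set by set, SBPASE read 0.626 and 0.611 in control samples 1 and 2, and 0.672 and 0.710 in high iron samples 1 and 2. It read 0.667 and 0.632 in control samples 3 and 4, and 0.728 and 0.785 in the high iron samples of those numbers. In samples 5 and 6 the order turned, with 0.691 and 0.696 in control and 0.642 and 0.640 at high iron. The values inside a set were close for this gene, and the shift of the last set was thus larger than the gap inside it.

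Against the other probes of the same array, SBPASE stood higher at high iron in every set. Its rank was at the 49.4th to 62.9th percentile of all probes in control samples and at the 68.5th to 80.7th percentile in high iron samples. Ranks need no scaling, and here the groups did not overlap. Quantile normalization carries this over: control samples stood at -0.84 ± 0.15 and high iron samples at -0.36 ± 0.16 (log2, mean ± SD, n = 6). Of all probes, 18.1% had groups that did not overlap on this scale, and 9.77% did so with the higher values at high iron.

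In limma over all 3439 probes, SBPASE passed with an adjusted p of 0.00249 (95% interval before adjustment 0.27 to 0.68 on the log2 scale). In the same fit 33.4% of all probes passed and 18.2% passed with a higher value, so a call of this kind was frequent on these arrays. A two-sided exact permutation test over the 12 samples gave p = 0.00216, the smallest that 6 against 6 can give. With the set as a random block SBPASE still passed (adjusted p = 0.0170, against 14.3% of probes called). Over the 6 averages SBPASE missed the threshold (adjusted p = 0.132, SE 0.15, interval 0.11 to 0.85 before adjustment, with 2.38% of probes called), and the exact permutation test there cannot go below its value of p = 0.10. In bulk RNA, more cells of a type and more transcript in each cell cannot be told apart.

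**Figure D1:**
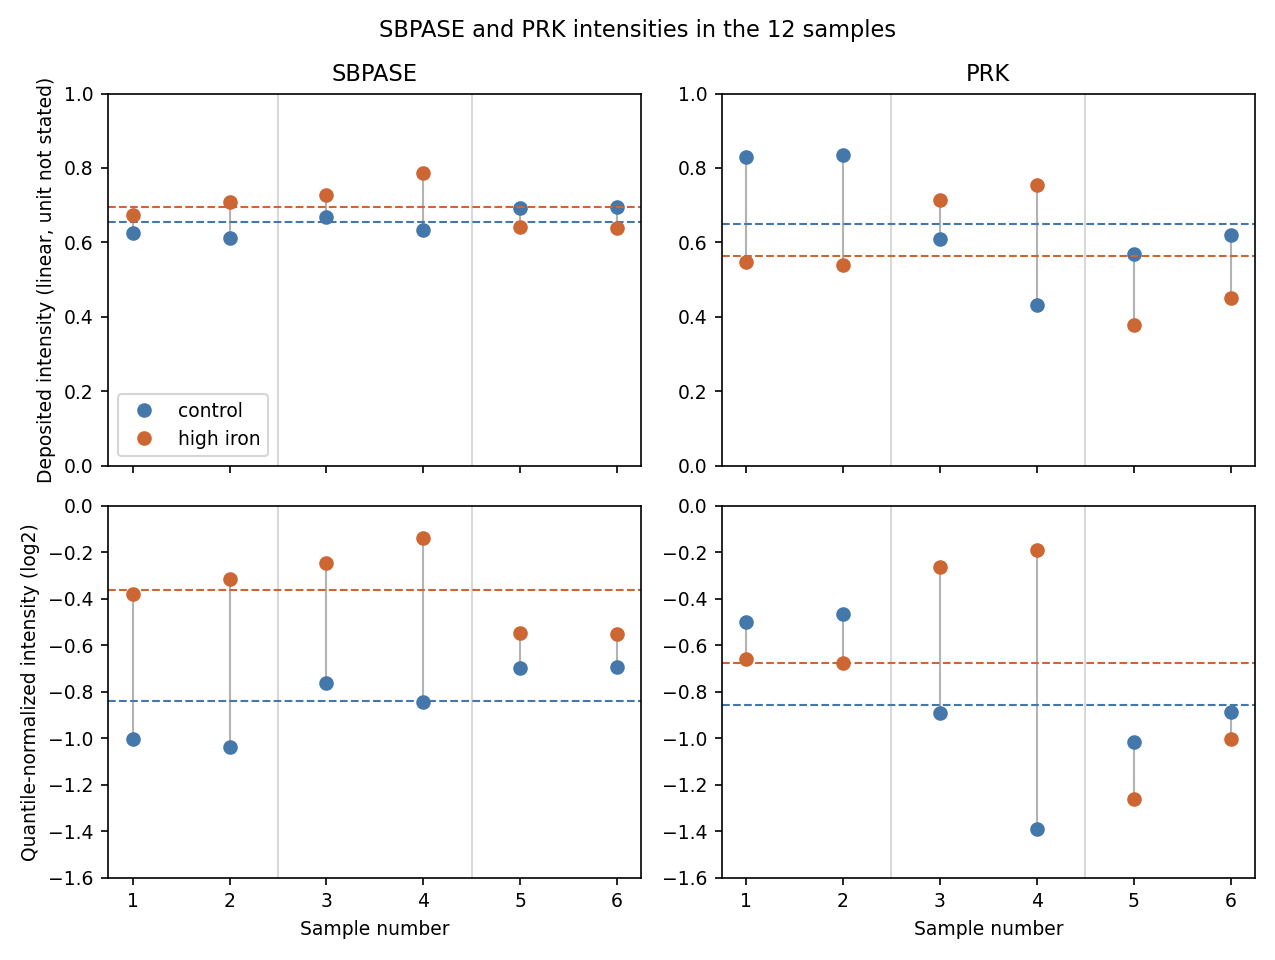
Intensity of the SBPASE probe (left) and the PRK probe (right) by sample number, as deposited on a linear axis (top) and quantile normalized on a log2 axis (bottom); blue points are control and orange points high iron samples, grey lines join samples of the same number, dashed lines are group means and vertical lines part the sets. After normalization all 6 high iron values of SBPASE lie above all 6 control values, while PRK is higher at high iron in samples 3 and 4 and lower in the others.

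The size of the SBPASE change depended on how the arrays were scaled. After median scaling it was 0.61 (adjusted p = 0.0022, 24.7% of probes called higher). With values as deposited it was 0.09 and did not pass (adjusted p = 0.278), in a comparison in which the median change of all probes was -0.40 and 8.46% of probes were called higher. Set against the 342 probes of similar brightness, within 5 percent of ranks, a comparison chosen after the values were seen, SBPASE stood 0.49, 0.50 and 0.50 above their median change with quantile normalization, median scaling and deposited values. The last 2 values are equal by construction, since median scaling multiplies a whole column by 1 factor. The scalings differed in where they placed the probes of similar brightness, at -0.01, 0.11 and -0.41.

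The PRK intensity varied more. In control samples it was 0.431 at the lowest, 0.614 at the median and 0.834 at the highest, and in high iron samples it was 0.378, 0.543 and 0.753. The groups overlapped over most of their range.

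The sets show where this spread lay. Control samples 1 and 2 had the highest control values of PRK, 0.829 and 0.834, and high iron samples 1 and 2 had 0.548 and 0.538. Control samples 3 and 4 read 0.609 and 0.431, and high iron samples 3 and 4 had the highest values of their group, 0.715 and 0.753. Control samples 5 and 6 read 0.568 and 0.620, and high iron samples 5 and 6 had the lowest values of their group, 0.378 and 0.452. PRK was thus lower at high iron in samples 1, 2, 5 and 6 and higher in samples 3 and 4 with deposited values. The signs were the same after quantile normalization and median scaling, but the sizes differed. In samples 1 and 2 the mean log2 change was -0.62 as deposited, -0.18 after quantile normalization and -0.04 after median scaling. In samples 5 and 6 it was -0.52, -0.18 and -0.18, and in samples 3 and 4 it was 0.52, 0.91 and 1.17.

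After normalization the PRK means were -0.86 ± 0.34 in control and -0.68 ± 0.41 in high iron samples (log2, mean ± SD, n = 6), and the change of 0.18 had a 95% interval of -0.28 to 0.64. The adjusted p was 0.550 over 12 samples and 0.763 over the 6 averages, where the interval was -0.57 to 0.93. A rise as large as that of SBPASE, or a small fall, lies within the interval over 12 samples. The sign of the mean rests on 1 set: without samples 3 and 4 of both groups PRK stood at -0.18 (adjusted p = 0.555). After median scaling it was 0.32, with array weights 0.32, and without samples 1 and 2 or samples 5 and 6 of both groups 0.37 and 0.36. With deposited values it stood at -0.21 (adjusted p = 0.420), which was 0.19 above the median change of all probes and 0.23 above that of probes of similar brightness, so this value is not a fall relative to the array. Single samples moved it as well, to 0.08 without control sample 4 and to 0.30 without high iron sample 5.

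By sets, PRK changed by -0.18, 0.91 and -0.18 (log2, sets of samples 1 and 2, 3 and 4, 5 and 6), and SBPASE by 0.67, 0.61 and 0.15. Both genes differed between sets in the interaction of set and treatment in limma, with an adjusted p of 0.0140 for PRK and 0.00518 for SBPASE, where 35% of all probes passed. In this fit the set that stood apart was that of samples 3 and 4 for PRK and that of samples 5 and 6 for SBPASE. Whether the patterns of the genes differ was not tested. This test takes the gap between the samples of a set as its error, 0.16 for PRK and 0.05 for SBPASE (SD, log2), which may be technical. Of all probes, 42.3% did not keep 1 sign over the 3 sets, as PRK did not, and 57.7% kept it, as SBPASE did.

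Both interaction calls ended when a running median over 11 neighbouring probe numbers was taken out of each column. The adjusted p was then 0.203 for PRK and 0.134 for SBPASE, with 12.7% of probes called. The set changes of PRK became 0.09, 0.58 and 0.09, so that it was no longer lower in any set, and those of SBPASE became 0.60, 0.79 and 0.37. Both genes then had their largest change in samples 3 and 4. The 4 probes with the numbers nearest to PRK had median changes of 0.15, 0.66 and 0.12 in the 3 sets, and those nearest to SBPASE 0.20, -0.02 and -0.05. The sources used here do not say whether probe numbers follow positions on the array, and the part of position in these results was not tested further.

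**Figure D2:**
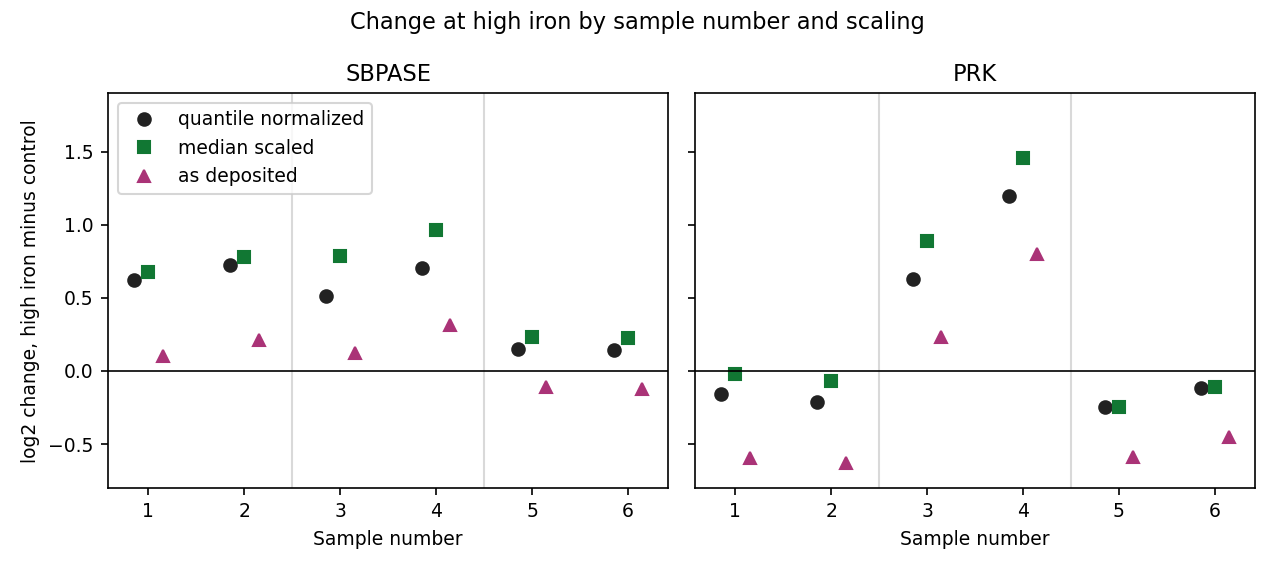
Change of SBPASE (left) and PRK (right) at high iron for each pair of samples with the same number, in log2 units, under 3 scalings of the arrays; vertical lines part the sets. SBPASE is above 0 in 6 of 6 pairs with quantile normalization and median scaling and in 4 of 6 as deposited, and PRK is above 0 in 2 of 6 under each scaling.

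Levels also differed between sets inside a group. The means of the PRK sets spanned more than in 78.6% of all probes in control and 83.6% in high iron samples. For SBPASE the set means spanned 0.32 and 0.36, wider than in 39.1% and 30.4% of probes. The largest gap inside a set was 0.50 for PRK, between control samples 3 and 4, and 0.11 for SBPASE, between high iron samples 3 and 4. Neither gene had a value at the floor of 0.106, and 68.1% and 61.2% of probes were dimmer than SBPASE and PRK on average, so neither change rests on floored values.

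The ratio of the SBPASE intensity to the PRK intensity cancels any factor common to a sample. Different probes are not comparable in level, so the ratio is no ratio of transcript numbers, and only its difference between samples is read here. With deposited values it ran from 0.733 over a median of 1.11 to 1.47 in control samples, and from 1.02 over 1.27 to 1.70 in high iron samples. The lowest values were those of control samples 1 and 2, at 0.756 and 0.733. The other 4 control samples lay between 1.10 and 1.47, inside the range of the high iron samples.

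The mean log2 ratio after quantile normalization was 0.02 ± 0.45 in control and 0.31 ± 0.26 in high iron samples (SD, n = 6), a difference of 0.29 or 1.23-fold. This difference did not pass the test (exact permutation test, two-sided, p = 0.216 with 12 samples and p = 0.50 with the 6 averages, where the smallest possible is 0.10). This is also the test of whether SBPASE changed more than PRK, and it does not show that their changes differed. With deposited values or median scaling the difference was 0.29 (exact permutation p = 0.177). The ratio was higher at high iron in 4 of 6 pairs of the same number. By sets it changed by 0.86, -0.30 and 0.33, and without samples 1 and 2 of both groups the difference was 0.01 (exact permutation p = 0.971). Without samples 3 and 4 it was 0.59 (exact permutation p = 0.0571, where the smallest possible is 0.0286).

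**Figure D3:**
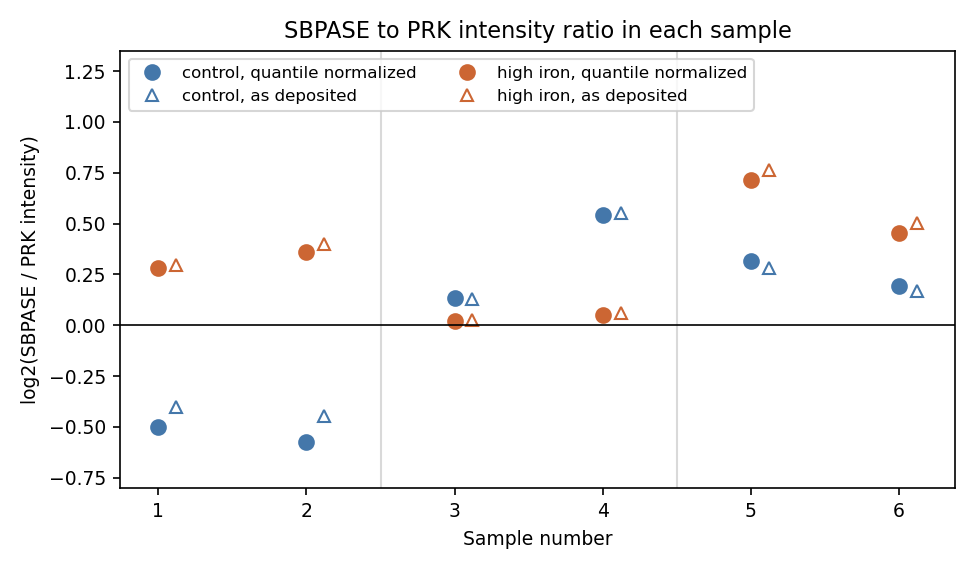
log2 of the SBPASE over the PRK intensity in each sample by sample number, for control (blue) and high iron (orange), with filled circles for quantile-normalized and open triangles for deposited values; vertical lines part the sets. Control samples 1 and 2 lie lowest, at -0.50 and -0.57, and in samples 3 and 4 the control values lie above the high iron values.

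Few other genes of the cycle could be followed. Of 11 listed genes of the regeneration branch, 2 had a probe with 1 annotated gene, SBPASE and PRK, of which 1 rose, 0 fell and 1 did not pass, where 33.4% of all probes passed and 18.2% passed with a higher value. None of 10 listed genes for fixation and reduction, 7 for the use of triose phosphates and 9 for photorespiration had such a probe, and these are not analysed here. Of 12 listed regulators of the cycle 2 were measured, and 0 of the 2 passed. Of 33 listed genes of the light reactions 4 were measured, and 0 of the 4 passed in that fit. After median scaling and with deposited values 3 of these 4 passed, as given below. With so few members the counts of the quantile-normalized fit do not set the lists apart from the share of all probes. The median change was 0.33 for the 2 regeneration genes, 0.09 for the regulators and 0.09 for the light reactions, against 0.00 for all probes. These medians moved with the scaling. After median scaling they were 0.46, 0.24 and 0.86 in the same order, against 0.02 for all probes, and with deposited values -0.06, -0.29 and 0.34, against -0.40, so that the light reactions then stood above the regeneration genes.

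NTRC (AT2G41680) is the chloroplast thioredoxin reductase that draws on NADPH, and works in the redox control of cycle enzymes. Its deposited intensity ran from 0.538 over a median of 0.673 to 0.798 in control samples and from 0.518 over 0.542 to 0.699 in high iron samples. Its change was 0.23 (SE 0.15, adjusted p = 0.268), but -0.20 with deposited values (adjusted p = 0.156) and -0.03 with neighbouring probe numbers taken out. By sets it changed by 0.67, 0.30 and -0.27, the lowest in samples 5 and 6.

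AT2G04700, which the annotation used here does not name, stood in the same list of regulators. Its deposited intensity ran from 0.829 over 0.892 to 0.933 in control samples and from 0.627 over 0.697 to 0.710 in high iron samples. With deposited values the gene was lower by a called change of -0.37 (adjusted p = 0.000144), in a comparison in which 46.6% of all probes were called lower. After quantile normalization the change was -0.04 (SE 0.06, adjusted p = 0.613, interval -0.18 to 0.09) and after median scaling it was 0.16 (SE 0.09, adjusted p = 0.186). Neither passed, so no direction relative to the array was established.

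Among the light reaction genes, the photosystem subunits PSAN, PSBW and PSBY and the antenna gene LHB1B2 had changes of -0.08, 0.19, 0.20 and 0.00. With sample numbers as a block PSBW was called higher (adjusted p = 0.0105), in a fit that called 40.5% of all probes, but not with that block over the 6 averages (adjusted p = 0.228). With median scaling 3 of these 4 genes were called higher, against 24.7% of all probes, and with deposited values also 3 of 4, against 8.46%. In both, the called genes were PSAN, LHB1B2 and PSBW, all above 0. PSBW had the largest change with deposited values and with median scaling. It stood at 1.34 with median scaling (limma, adjusted p = 9.2e-05) and at 0.82 with deposited values (adjusted p = 0.000395). The LHB1B2 values are uncertain, since close copies of it may hybridize to the same probe.

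**Figure D4:**
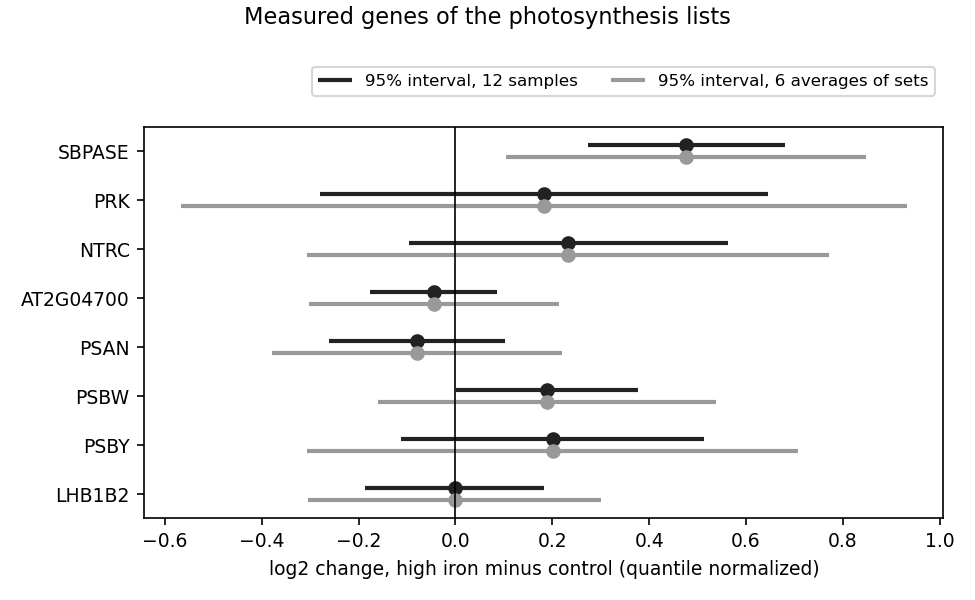
Change at high iron (log2, quantile normalized) of the 8 measured genes of the lists, with 95% intervals before adjustment over 12 samples (black) and over the 6 averages of sets (grey). The intervals of SBPASE lie above 0 in both fits, from 0.27 and from 0.11, and that of PRK spans 0 in both.

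The genes most like each member in pattern were sought over the 12 samples, by Pearson correlation of the log2 values with 589 other single-gene probes that had no value at the floor. These are descriptions over samples that share sets and scaling. Nearest to SBPASE were APS4 (r = 0.96), an ATP sulfurylase of sulphate assimilation, AT4G29890 (0.94), AT2G28660 (0.93), AT1G76220 (0.93) and CSLA01 (0.92), a cellulose synthase-like gene. All 5 were called higher at high iron, by 0.72 to 1.83 on the log2 scale, against 18.2% of all probes, which their choice by likeness to SBPASE favours. Over the 6 averages AT2G28660 (adjusted p = 0.0463) and CSLA01 (0.0310) passed and the other 3 did not, where 2.38% of all probes passed. The choice by likeness to SBPASE favours these calls too. Inside the groups, with the group means taken out, their correlations with SBPASE lay between 0.75 and 0.87, and with deposited values over all 12 samples between 0.57 and 0.70.

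Nearest to PRK were AT5G38310 (r = 0.86), AT4G21820 (0.83), AT1G34270 (0.83), AT2G48090 (0.82) and CHL (AT3G47860, 0.81), the plastid lipocalin. Of these, 4 did not pass in the comparison of the groups. CHL was called higher, at 0.95 (SE 0.31, adjusted p = 0.0339), where 18.2% of all probes were called higher. Over the 6 averages the call of CHL was lost (adjusted p = 0.266). Inside the groups CHL was the most like PRK of the 5, at 0.89. SBPASE and PRK correlated with each other at 0.35 over the 12 samples and at 0.27 inside the groups, and 69.9% of the 589 genes correlated less with SBPASE than PRK did.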

How the data were processed

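The authors deposited 1 intensity per probe and sample on a linear scale, for 12 samples and 3439 probes. Scanning, background correction and scaling are not stated in the labels, so scale and centring stay unknown. Groups came from the source names and numbers from the titles. Genes were named from the platform annotation, which can be old, through gene numbers in a RefSeq table of assembly TAIR10.1 that held 690 of the 692 probes with 1 gene; 870 had several and 1877 none.

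Arrays were quantile normalized, floored at the 5th percentile of positive values (0.106) and taken to log2. All probes were tested two-sided in R 4.3.3 with limma 3.58.1 (linear fits, then empirical Bayes moderation with a trend on the mean), and p-values were adjusted by Benjamini-Hochberg at a threshold of 0.05; statmod 1.5.0 served the random block (correlation 0.774). The scripts were run on simulated data, which does not show whether the samples of a set are separate replicates. Single values had exact permutation tests. The number of arrays limits the precision. Samples left out were dropped after normalization.

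Same-numbered samples of the 2 groups deviated together (correlations from 0.13 to 0.52). Samples of the same set with another number in the other group did so nearly as much (0.11 to 0.49). In the other group, 12 of 12 samples were closest to their own number. The labels state no pairing, and whether the numbers or only the sets pair the samples was not tested. The fit stayed unpaired, with the number as a block as an alternative.

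The members, lists and alternatives were chosen with earlier results of these data known. The genes named are the members, the other listed genes with a single-gene probe, and the 5 genes most like each member.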

Additional observations from a re-analysis of the deposited data

Results flagged for a closer look

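The change of SBPASE at high iron differed between the sets of samples (limma interaction, adjusted p = 0.00518), with 0.67, 0.61 and 0.15 on the log2 scale. The change of PRK also differed between sets (adjusted p = 0.0140), with -0.18, 0.91 and -0.18. Of all probes 35% passed this test, and both calls ended with neighbouring probe numbers taken out. Of 18 groups of 6 values examined for a sample far from the others, 0 held one; chance gives about 1 in 20.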

How the results depend on the processing

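SBPASE kept its direction under all alternatives run, and lost its call with deposited values (0.088), over the 6 averages (0.48, adjusted p = 0.132) and with the replicate block over the averages (0.48, adjusted p = 0.157). With the replicate block over 12 samples it passed (adjusted p = 0.0133), and that block changed no other call of the listed genes but PSBW's (adjusted p = 0.0105, and 0.228 with the block over averages). Without 1 sample in turn SBPASE ranged from 0.43 to 0.51 and passed in 12 of 12 fits. PRK did not pass under any alternative run. It ranged from 0.08 to 0.30 without 1 sample, and stood at -0.21 with deposited values, where the median change of all probes was -0.40, and at -0.18 without samples 3 and 4. The ratio stayed above 0 and did not pass, from 0.18 to 0.40 without 1 sample, with exact permutation p of 0.25 and 0.50 with the replicate block over 12 samples and over averages. The interaction ended with neighbouring probe numbers removed (adjusted p = 0.134 for SBPASE and 0.203 for PRK), and without 1 sample its adjusted p ranged from 0.00452 to 0.0205 and from 0.00604 to 0.0374. Probes called numbered 1149, with 1892 as deposited, 82 over averages, 491 with sets as random blocks, 1 with the replicate block over averages, and 1000 to 1172 without 1 sample.

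Signs turned for genes that had not passed. With median scaling PSAN stood at 0.84, LHB1B2 at 0.88 and AT2G04700 at 0.16. With deposited values PSAN stood at 0.32, LHB1B2 at 0.35 and NTRC at -0.20. With neighbouring probe numbers removed NTRC stood at -0.034 and PSBY at -0.047. With array weights LHB1B2 stood at 0.12 and AT2G04700 at 0.013. LHB1B2 stood at 0.034 without samples 1 and 2, AT2G04700 at 0.046 without samples 5 and 6, and LHB1B2 ranged from -0.046 to 0.045 without 1 sample. Some calls in limma were gained. Without samples 5 and 6 these were PSBY (0.39, adjusted p = 0.0345) and PSBW (adjusted p = 0.0319), where 1127 of 3439 probes were called. With array weights PSBW was called (adjusted p = 0.0461), where 1661 of 3439 probes were called. Without 1 sample NTRC ranged from 0.14 to 0.30 and PSBY from 0.11 to 0.30. The cause was not tested.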
